A study of Mus musculus with 7 samples.

Results

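The 10 genes Mxra8, Faap20, Ttc34, C1qtnf12, Samd11, Morn1, Nphp4, Mfn2, Fbxo44 and Zfp979, which lie towards the distal end of mouse chromosome 4, were followed in whole testis, with 3 arrays of the Phf13 knockout and 4 of the wild type, all of mice aged 15 to 20 weeks. They were chosen from genes within 10 Mb of Phf13, but not directly beside it, because they differed between knockout and wild type in these same arrays. The choice was not strictly by the size of that difference. The differences of the 10 genes themselves are therefore a description, without a test. All 10 were on the array, among 18194 genes with a probe set of a single gene symbol, and they had 22 of its 34958 probe sets of 1 symbol. Biotin-labelled cRNA made from 2 ug of total RNA was hybridised to 1 Affymetrix array per sample, and values are the deposited log2 signals. The strain of the mice, the design of the knockout allele, and whether each array holds RNA of a separate animal are not given in the sources used here, so that errors and p-values cover the spread between arrays, part of which may be technical.

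The PHD finger protein made from Phf13 recognises histone H3 methylated at lysine 4, a mark of active promoters. The 10 genes share a chromosome end but no common pathway. Mxra8 encodes an immunoglobulin-domain adhesion protein of the cell surface that also serves as an entry receptor for arthritogenic alphaviruses, and C1qtnf12 encodes adipolin, a secreted hormone of the C1q and TNF related family. Faap20 encodes a subunit of the Fanconi anaemia core complex, which acts in repair of DNA crosslinks, and Fbxo44 encodes a substrate receptor of an SCF ubiquitin ligase. Nphp4 encodes nephrocystin-4 of the ciliary transition zone, and mice with mutant Nphp4 have defective sperm. Mfn2 encodes a GTPase that fuses mitochondrial outer membranes and is needed in male germ cells of mice. Zfp979 belongs to a rodent cluster of KRAB zinc finger genes, whose products typically silence retrotransposons, and Samd11 encodes a SAM domain protein known from retinal photoreceptors. Morn1 and Ttc34 encode proteins with MORN and tetratricopeptide repeats.

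The promoter windows of 4 of the genes are shown as examples. Mxra8 and Faap20 were furthest below wild type in knockout testis, Ttc34 had the fewest CpG dinucleotides, and Samd11 was the gene that was higher. Each window runs from 250 bases before to 50 bases after the RefSeq start on GRCm38.p6, 5′ to 3′ along the gene's strand, and capitals mark CpG dinucleotides.
Mxra8 promoter window (chr4:155839430-155839729, plus strand): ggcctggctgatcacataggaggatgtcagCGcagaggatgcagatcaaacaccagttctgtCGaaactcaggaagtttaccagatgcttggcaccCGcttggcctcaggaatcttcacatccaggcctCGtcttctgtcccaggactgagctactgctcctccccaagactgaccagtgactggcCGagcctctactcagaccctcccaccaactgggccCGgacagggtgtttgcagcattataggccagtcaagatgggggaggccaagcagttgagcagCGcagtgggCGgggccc
Faap20 promoter window (chr4:155249716-155250015, plus strand): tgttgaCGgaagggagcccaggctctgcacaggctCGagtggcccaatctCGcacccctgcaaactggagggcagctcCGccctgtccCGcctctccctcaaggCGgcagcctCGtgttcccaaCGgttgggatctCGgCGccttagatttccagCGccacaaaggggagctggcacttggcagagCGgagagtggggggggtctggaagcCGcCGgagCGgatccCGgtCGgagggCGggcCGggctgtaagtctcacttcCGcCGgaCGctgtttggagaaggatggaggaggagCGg
Ttc34 promoter window (chr4:154837166-154837465, plus strand): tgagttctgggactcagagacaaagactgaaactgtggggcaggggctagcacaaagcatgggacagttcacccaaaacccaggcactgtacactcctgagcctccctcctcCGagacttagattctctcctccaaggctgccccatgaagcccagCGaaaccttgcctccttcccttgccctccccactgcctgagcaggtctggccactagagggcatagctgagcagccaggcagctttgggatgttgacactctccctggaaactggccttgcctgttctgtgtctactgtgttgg
Samd11 promoter window (chr4:156255293-156255592, minus strand): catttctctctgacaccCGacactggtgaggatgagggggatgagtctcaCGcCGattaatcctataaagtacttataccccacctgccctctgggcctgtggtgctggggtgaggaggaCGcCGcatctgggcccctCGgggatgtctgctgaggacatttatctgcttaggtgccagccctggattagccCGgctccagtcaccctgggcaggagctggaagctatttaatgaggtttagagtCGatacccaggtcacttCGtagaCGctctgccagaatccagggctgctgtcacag

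The promoters of the group were not of 1 kind. RefSeq promoter windows were matched for 9 of the 10 genes, 16 windows in all, since Morn1, Nphp4, Mfn2 and Fbxo44 have several starts. The windows held 2 to 31 CpG dinucleotides, against a median of 7 in 32851 windows of the same length, and 13 of the 16 were above that median. The Faap20 window held 23 CpGs and the Mxra8 window 8, while the Ttc34 window held 2 and the Samd11 window 10. The Zfp979 window was the poorest in G and C, at 42.3%, against a median of 52.7% over all windows. The Phf13 window held 34 CpGs. A TATAAA match on either strand was found in the window of Samd11 and in 0 of the other 15, against 13.6% of all windows. CCAAT was found in 8 of the 16 windows (37.4% of all windows), GGGCGG in 8 (35.7%), the shorter cAMP response motif TGACG in 9 (20.8%) and its full palindrome TGACGTCA in 0 (1.79%), again on either strand. The shorter motif lies inside the palindrome, so their counts overlap, and windows of 1 gene overlap each other as well. These matches describe the letters of the windows.

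The targeted gene checked the labels. Phf13 signals were 6.04, 5.83 and 5.71 in knockout, against 8.66, 8.64, 8.73 and 8.54 in wild type. All knockout arrays lay below all wild type arrays, with a log2 difference of −2.78 (SE 0.09). The exact two-sided permutation p was 0.0286, the smallest that 35 divisions of the arrays allow. The sources used here do not say whether its probe set lies in the deleted part. Array medians lay between 5.01 and 5.08 and arrays correlated at 0.984 to 0.996 across genes. Over all genes, 16.1% passed limma's adjusted p of 0.05, with 7.05% lower and 9.07% higher in knockout. In counts, 1283 genes fell and 1651 rose, and with each array centred on its own median 2042 fell and 1635 rose. Leaving out knockout 1 changed the total of 2934 to 996, and leaving out knockout 3 to 175. It was 741 when wild type 1 was left out and 1364 when wild type 2 was.

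Whole testis mixes germ cells with the somatic cells around them, and the marker lists moved with genotype. The summed linear signal of 10 Sertoli markers was 15180 to 16710 in knockout, against 9203 to 12100 in wild type, and 9 of the 10 rose. For 6 Leydig markers it was 5824 to 7280 in knockout, against 3118 to 4568 in wild type (3 rose), and for 8 macrophage markers 1030 to 1677 in knockout, against 701.4 to 942.7 in wild type (5 rose). The 5 peritubular and smooth muscle markers summed to 1219 to 1419 in knockout, against 862.3 to 1000.0 in wild type (1 rose). Spermatid markers (11) summed to 70180 to 71430 in knockout, against 72320 to 76590 in wild type, and 3 fell. The 9 spermatocyte markers overlapped, at 20680 to 22650 in knockout and 21800 to 22230 in wild type (1 fell). The 5 endothelial, 4 lymphocyte and 3 epididymal markers overlapped as well, and the epididymal sum was highest in knockout 2, at 165.3. The 7 spermatogonial markers lay at 1152 to 1356 in knockout, against 913.4 to 1131 in wild type (2 rose). In whole tissue, fewer cells of a type and less RNA per cell cannot be told apart, and the part of these shifts in the differences of the 10 genes was not tested.

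Against the shares over all genes, all 10 genes passed the same threshold, 9 lower and 1 higher, which follows from how they were chosen and is read no further. Their median log2 fold change was −0.85, against −0.045 for all tested genes. Mxra8, Faap20 and C1qtnf12 were lower by more than 1 on the log2 scale, and the least shifted of the group were Nphp4 and Mfn2. Of the 22 probe sets, 13 passed as lower and 1 as higher. Over all probe sets of 1 symbol the share that passed was 11.4%, with 4.07% lower and 7.33% higher. In 16 of the 22 probe sets every knockout array lay below every wild type array, and in 1 every knockout array lay above, where 11.7% and 12.2% of all probe sets did so. The 22 probe sets belong to the chosen genes, so these counts largely follow from the choice too and are read no further.

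**Figure D1:**
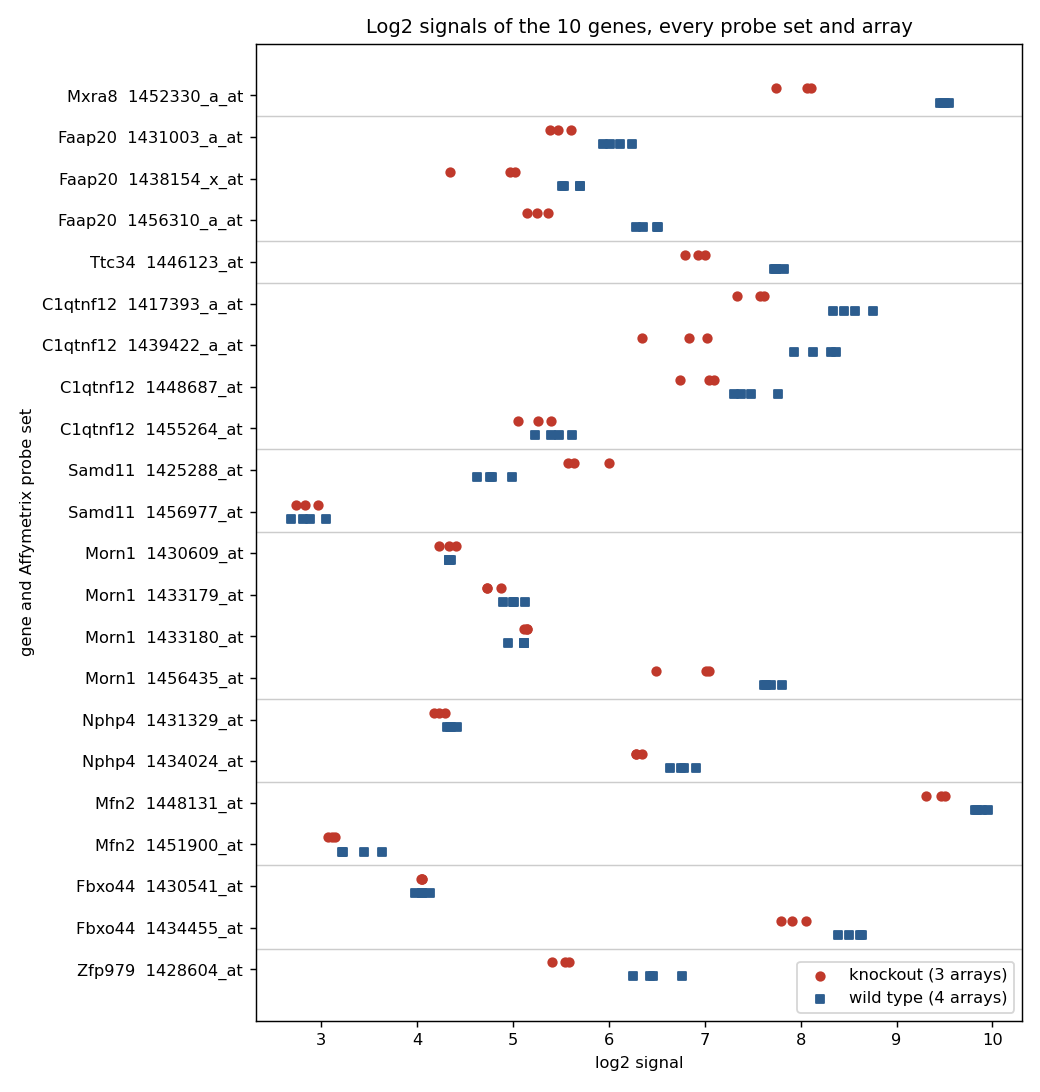
Log2 signals of the 10 genes on the horizontal axis, with 1 row for each of the 22 probe sets; red circles are the 3 knockout arrays and blue squares the 4 wild type arrays. Knockout arrays lie to the left of wild type arrays in 16 rows and to the right in the row of Samd11 probe set 1425288_at. The groups overlap or touch in 5 rows, which belong to Morn1, Fbxo44, Samd11 and C1qtnf12.

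Among the genes of the cell surface and of secreted proteins, Mxra8 stood furthest apart. Its single probe set (1452330_a_at) gave log2 signals of 7.74, 8.11 and 8.07 in knockout, against 9.55, 9.51, 9.45 and 9.48 in wild type. The groups were separated by 1.34, and the lowest signal was that of knockout 1. The log2 difference was −1.52 (SE 0.09), a level 2.88-fold lower in knockout, which was rank 6 among the falls of all 18194 genes.

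C1qtnf12 had 4 probe sets, and they differed in how far knockout and wild type lay apart. Probe set 1439422_a_at gave 6.35, 6.84 and 7.02 in knockout, against 8.13, 7.93, 8.37 and 8.32 in wild type, a log2 difference of −1.45 (SE 0.17). Probe set 1417393_a_at gave 7.34, 7.62 and 7.58 in knockout, against 8.57, 8.34, 8.76 and 8.45 in wild type, a difference of −1.02 (SE 0.11). In both, the knockout arrays lay clear of the wild type arrays, and the lowest was again knockout 1. Probe set 1448687_at showed a smaller difference of −0.52 (SE 0.13), with 7.10, 7.04 and 6.74 in knockout and 7.38, 7.31, 7.76 and 7.48 in wild type. The groups overlapped in probe set 1455264_at, which gave 5.40, 5.05 and 5.26 in knockout and 5.40, 5.48, 5.62 and 5.23 in wild type. That probe set was the dimmest of the gene.

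Of the genes of DNA repair and ubiquitin transfer, Faap20 was lower in all 3 of its probe sets. The brightest by its mean, 1456310_a_at, gave 5.15, 5.25 and 5.37 in knockout, against 6.36, 6.51, 6.50 and 6.28 in wild type. The groups lay 0.91 apart, and the log2 difference was −1.16 (SE 0.08), a level 2.23-fold lower. The other two had differences of −0.83 (SE 0.16) for 1438154_x_at and −0.59 (SE 0.09) for 1431003_a_at. The _x_ in the name of 1438154_x_at is Affymetrix's mark for probes that may also bind other transcripts. Its knockout signals of 4.34, 4.97 and 5.02 were against 5.53, 5.51, 5.70 and 5.70 in wild type, and 1431003_a_at gave 5.39, 5.61 and 5.47 in knockout, against 5.94, 6.01, 6.24 and 6.12 in wild type. No knockout array of Faap20 reached a wild type array in any of the 3.

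Fbxo44 gave 7.80, 8.06 and 7.91 in knockout with probe set 1434455_at, against 8.62, 8.64, 8.39 and 8.5 in wild type. The log2 difference was −0.61 (SE 0.09) and the groups did not overlap. Probe set 1430541_at of the same gene gave 4.04, 4.05 and 4.05 in knockout and 4.14, 4.05, 4.05 and 3.98 in wild type, which overlap. Relative to the array medians its mean was −1.02 in knockout and −0.98 in wild type, and no detection calls were used here.

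Among the genes of cilia and of repeat proteins, Ttc34 had 1 probe set (1446123_at) and a narrow spread. Its signals were 7.0, 6.79 and 6.93 in knockout, against 7.74, 7.83, 7.72 and 7.74 in wild type. The log2 difference was −0.85 (SE 0.07), a level of 55.4% of wild type, and the groups lay 0.72 apart.

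Morn1 had 4 probe sets that disagreed. The brightest, 1456435_at, gave 6.49, 7.04 and 7.01 in knockout, against 7.64, 7.81, 7.69 and 7.62 in wild type, a log2 difference of −0.84 (SE 0.13). Knockout 1 was the lowest array there and the groups did not overlap. Probe set 1433179_at gave 4.88, 4.73 and 4.73 in knockout and 5.0, 5.01, 5.13 and 4.90 in wild type, a difference of −0.23 (SE 0.08) with a gap of 0.02. The other two, 1430609_at and 1433180_at, had differences of −0.01 (SE 0.06) and 0.07 (SE 0.06), and their groups overlapped or touched. Relative to the array medians, the wild type means of these 3 dim probe sets lay between −0.70 and 0.04.

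Nphp4 gave 6.28, 6.28 and 6.35 in knockout with its brighter probe set 1434024_at, against 6.91, 6.78, 6.64 and 6.75 in wild type. The log2 difference was −0.47 (SE 0.07), a level of 72.4% of wild type, with no overlap. In the dimmer probe set 1431329_at the signals were 4.23, 4.18 and 4.29 in knockout and 4.31, 4.35, 4.34 and 4.42 in wild type, which leaves a gap of 0.02 between the groups.

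Mfn2 was measured at a high signal by probe set 1448131_at, with 9.51, 9.46 and 9.31 in knockout, against 9.95, 9.84, 9.89 and 9.82 in wild type. Its log2 difference of −0.45 (SE 0.07) was the smallest of the 10 genes, a level of 73.3% of wild type. The other probe set, 1451900_at, gave 3.14, 3.11 and 3.07 in knockout and 3.22, 3.63, 3.45 and 3.23 in wild type. Relative to the array medians its mean was −1.96 in knockout and −1.65 in wild type.

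The last pair are genes of transcriptional control, and they went in opposite directions. Zfp979 (1428604_at) gave 5.41, 5.58 and 5.54 in knockout, against 6.46, 6.43, 6.25 and 6.76 in wild type, a log2 difference of −0.96 (SE 0.11). Zinc finger genes of this cluster resemble each other closely, and which of them the probe set binds was not tested. Samd11 (1425288_at) gave 5.64, 6.0 and 5.57 in knockout, against 4.78, 4.76, 4.63 and 4.99 in wild type. This was a log2 difference of 0.95 (SE 0.12), 1.93-fold higher in knockout, with the groups 0.58 apart. Relative to the array medians its mean was 0.67 in knockout and −0.24 in wild type. The other Samd11 probe set, 1456977_at, was dim, at −2.22 in knockout and −2.18 in wild type relative to the array medians, and its groups overlapped, with 2.97, 2.74 and 2.83 in knockout and 3.05, 2.88, 2.81 and 2.68 in wild type.

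**Figure D2:**
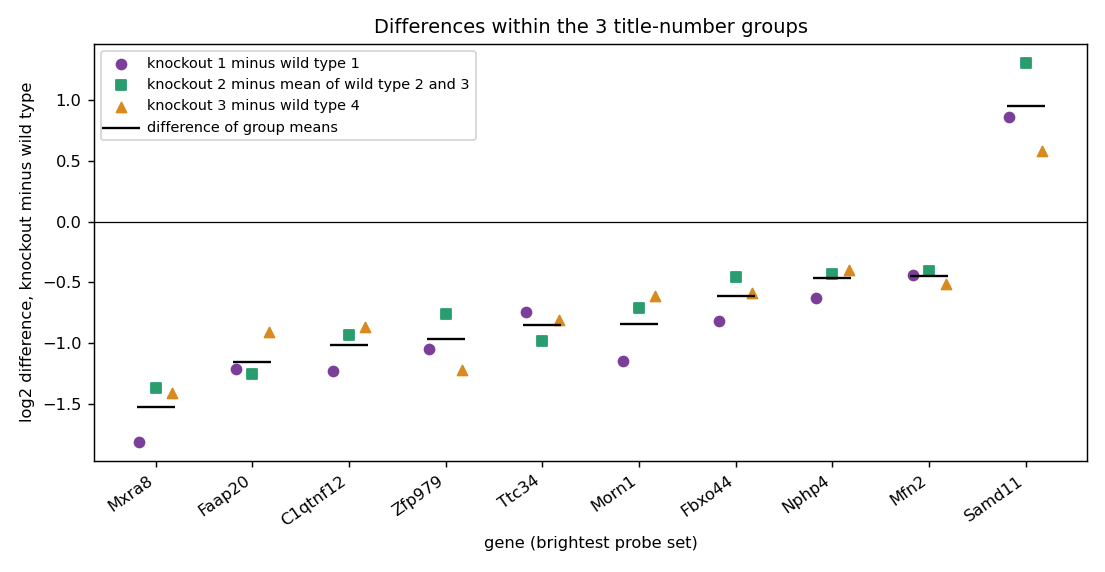
Log2 differences of knockout minus wild type on the vertical axis for the brightest probe set of each gene, within the 3 title-number groups (symbols) and as the difference of group means (black bars). All 3 differences are below 0 for 9 genes and above 0 for Samd11.

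Each array title opens with a number of its own, whose meaning is not stated. Arrays whose numbers share their first 4 digits were put together here, which is a choice of this re-analysis, and each of the 3 resulting title-number groups holds both genotypes. Within these groups the differences of all 10 genes kept 1 sign, as they must where knockout and wild type arrays do not overlap. Mxra8 differed by −1.81, −1.37 and −1.41 and Faap20 by −1.21, −1.25 and −0.91, in the order knockout 1 minus wild type 1, knockout 2 minus the mean of wild type 2 and 3, and knockout 3 minus wild type 4. Zfp979 differed by −1.05, −0.76 and −1.22. Samd11 differed by 0.86, 1.3 and 0.58, the widest range relative to its size. Mfn2 differed by −0.44, −0.40 and −0.51. A fit that blocked on these groups left all 10 past limma's adjusted p of 0.05, and leaving out knockout 3 left 7, without Nphp4, Mfn2 and Fbxo44. With knockout 3 and wild type 4 both left out, Faap20 alone passed among the 10, and 4 genes passed of all those tested. Since the 10 were chosen on this contrast in these arrays, their counts are a description and not a test.

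The 9 lower genes did not all vary in step between arrays of 1 genotype. In knockout 1, 7 of the 9 lay below their own knockout mean, by a median of 0.11 for the group. In knockout 3, 7 of the 9 lay above it. Deviations from a group mean cancel out, so the counts for knockout 1 and knockout 3 depend on each other. In wild type 4, 8 of the 9 lay below the wild type mean, by a median of 0.04. These median shifts were small beside the differences between genotypes. Single shifts were larger, such as −0.36 for Morn1 in knockout 1, against its difference between genotypes of −0.84.

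The 10 genes lay on both sides of Phf13 in RefSeq gene order on GRCm38.p6, 7 towards the chromosome end and 3 on the other side. By the count of protein-coding genes between it and Phf13, Nphp4 was nearest, with 16, and Samd11 was furthest, with 85. Ttc34 (31 between), Morn1 (40) and Faap20 (42) lay close together, then Mxra8 (63), C1qtnf12 (71) and Samd11. On the other side lay Fbxo44 (47 between), Mfn2 (58) and Zfp979 (64).

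None of the tested genes nearest to the 10 passed as lower. For each of the 10, the nearest tested protein-coding gene on either side was looked up, which gave 18 different genes. Of these, 0 fell, 2 rose and 16 did not pass limma's adjusted p of 0.05, where 7.05% of all genes fell and 9.07% rose. In so few genes, counts of 0 and 2 are near those shares. At an unadjusted p under 0.05 there were 2 lower and 3 higher. Their median log2 fold change was 0.06 and none was below −0.26. Fbxo44 lies between its relatives Fbxo6 (0.13, SE 0.06, adjusted p = 0.194) and Fbxo2 (−0.26, SE 0.12, adjusted p = 0.185), which encode related sugar-binding F-box proteins and did not pass. Nearest to Zfp979 on 1 side, the zinc finger gene Zfp982 rose by 0.99 (SE 0.17, adjusted p = 0.0137), with 5.63, 5.0 and 4.86 in knockout and 4.22, 4.00, 4.18 and 4.31 in wild type. Beside Nphp4, the potassium channel subunit gene Kcnab2 rose by 0.50 (SE 0.11, adjusted p = 0.0204). A strongly shifted gene beside one of the 10 would have been a candidate for the group itself, so the count describes the spacing and tests nothing.

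**Figure D3:**
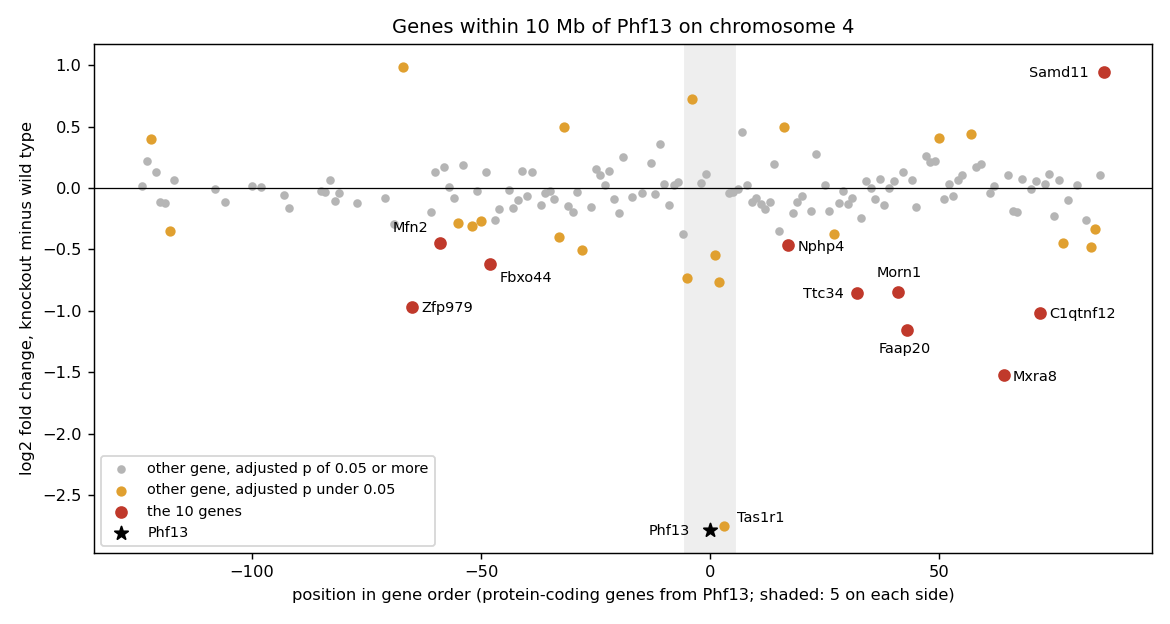
Log2 fold change of knockout minus wild type (vertical axis) for 155 tested protein-coding genes within 10 Mb of Phf13, by their place in gene order (horizontal axis, Phf13 at 0, chromosome end to the right). The 10 genes (red) stand among genes near 0, and Phf13 (star) and Tas1r1 lie lowest at −2.78 and −2.75.

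Taking all genes within 10 Mb of Phf13 except the 5 protein-coding genes on each side of it, 156 were tested. Of these 21 fell (13.5%) and 8 rose (5.13%), 18.6% in all, against 7.05%, 9.07% and 16.1% over all genes. The median log2 fold change of the window was −0.05, close to the −0.045 of all genes. Without the 10 chosen genes, 12 of 146 fell (8.22%) and 7 rose (4.79%), against the same 7.05% and 9.07%. All 10 had passed, so leaving them out lowers the window's shares by itself. The shares over all genes were not trimmed in this way, so the comparison is a description. With the 10 genes counted again, within 5 Mb on the side away from the chromosome end 9 of 55 fell, 3 of them among the 10, and 3 rose, and from 5 to 10 Mb on that side 2 of 24 fell and 1 rose. From Phf13 to the chromosome end 10 of 77 fell, 6 of them among the 10, and 4 rose, 1 of them Samd11. Further out, from 10 to 20 Mb, 14 of 186 fell (7.53%) and 11 rose (5.91%), and in the rest of chromosome 4 it was 51 (6.86%) and 67 (9.02%) of 743. The window had 29 calls with all arrays, 18 when knockout 1 was left out and 9 when knockout 3 was. Leaving out wild type 1 gave 16, and leaving out wild type 2 gave 19.

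The genes directly beside Phf13 included the furthest shifted gene of the window after Phf13 itself. Of 9 tested among the 10 closest, 4 fell, 1 rose and 4 did not pass. Tas1r1, which encodes a taste receptor subunit, fell by 2.75 on the log2 scale (SE 0.10), the zinc finger gene Zbtb48 fell by 0.77 (SE 0.06) and the transcription factor gene Camta1 rose by 0.72 (SE 0.11).

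**Figure D4:**
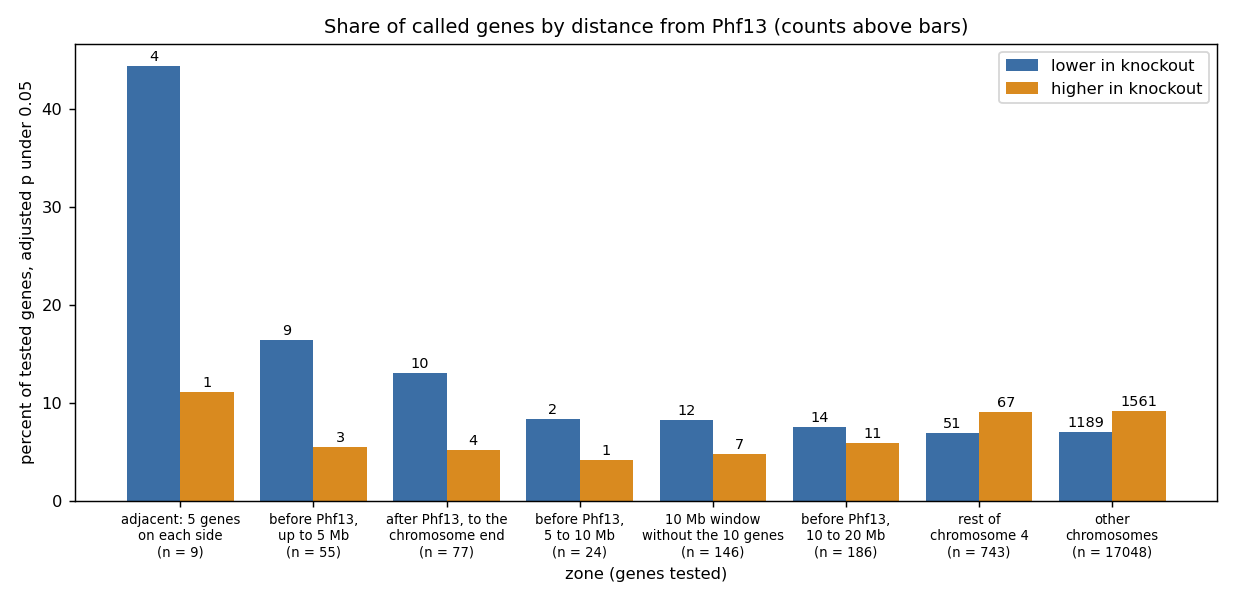
Percent of tested genes past limma's adjusted p of 0.05 on the vertical axis, lower (blue) and higher (orange) in knockout, by zone around Phf13; counts stand above the bars and the zones up to 10 Mb hold the 10 genes except where stated. The share of falls is 44.4% among the 9 adjacent genes tested, against 7.05% over all genes. It is 16.4% and 13.0% within the nearest zones, where 3 of 9 and 6 of 10 falls are among the 10 genes. It is 8.22% in the window once the 10 genes are left out. All 10 had passed, so leaving them out lowers the shares by itself.

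The choice of the 10 genes was not strictly by size. Mfn2 (−0.45) and Nphp4 (−0.47) were the least shifted of them, and 9 other genes of the window differed by at least as much. Besides Zfp982 and Kcnab2 these included Nmnat1, which encodes a nuclear enzyme of NAD synthesis and fell by 0.50 (SE 0.11), and 3 with predicted or clone names. Plekhn1 fell by 0.48 (SE 0.10) and Pgd rose by 0.495 (SE 0.13). Espn was higher by 0.46 (SE 0.16) but did not pass, at limma's adjusted p of 0.0798. Smaller falls included those of Ttll10, a tubulin-modifying enzyme gene of the sperm tail (−0.44, SE 0.09), Tprgl (−0.37, SE 0.07) and the germ cell gene Pramel12 (−0.35, SE 0.06). Their limma adjusted p-values were 0.0207, 0.0154 and 0.0147. At the limit of 10 Mb, the next gene inside was Tmem51 (0.02, SE 0.07) and the next outside was Fhad1 (−0.32, SE 0.13), and neither passed.

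Genes related to the 10 by pathway or family, most of them on other chromosomes, were tested in the same fit. Of 157 such genes measured, 27 fell (17.2%) and 12 rose (7.64%) at an adjusted p under 0.05, and 118 did not pass, against 7.05% and 9.07% of all genes that fell and rose. Their median log2 fold change was −0.12, against −0.045 for all genes. The lists were chosen with earlier results of these data known, so these shares are a description. Of the 27 falls, 12 were in the tetratricopeptide list and 8 in the Fanconi list. The part of the lower spermatid marker sum in these falls was not tested. These calls rest on few arrays: 20 genes passed with a block for the title-number groups and 16 with one for the replicate number. Leaving out knockout 1 left 4, and leaving out knockout 3 left 1. Leaving out 1 wild type array left 2 (wild type 1), 11 (wild type 2), 24 (wild type 3) or 21 (wild type 4).

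The Fanconi anaemia list covers the pathway of Faap20. Of its 25 measured genes 8 fell (32.0%, against 7.05% of all genes), 1 rose and 16 did not pass, with a median of −0.15. Ercc4, a nuclease subunit that cuts beside crosslinks, fell by 0.29 (SE 0.06, adjusted p = 0.0195), with 7.70, 7.82 and 7.74 in knockout and 7.99, 8.08, 8.03 and 8.06 in wild type. Faap100, a core complex subunit, fell by 0.38 (SE 0.09) and Fancd2, which the core complex marks with ubiquitin, by 0.28 (SE 0.07). Cenps (−0.40, SE 0.10), which binds FANCM, and Mad2l2 (−0.27, SE 0.07), a subunit of polymerase zeta, fell too and lie within the window around Phf13. Rfwd3, a ubiquitin ligase gene, rose by 0.22. The falls were smaller than that of Faap20 itself, and with the title-number block Ercc4, Faap100 and Cenps passed while Fancd2 (adjusted p = 0.0585) and Mad2l2 (0.0685) did not.

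The mitochondrial fusion and fission list of Mfn2 was mixed. Of 20 genes 2 fell (10%), 2 rose and 16 did not pass (median −0.04). Mfn1, the partner of Mfn2 in outer membrane fusion, fell by 0.27 (SE 0.07, adjusted p = 0.0372), with 8.26, 8.4 and 8.43 in knockout and 8.62, 8.73, 8.61 and 8.56 in wild type. Opa1, which fuses the inner membrane, rose by 0.25 (SE 0.07, adjusted p = 0.0470). Mtfr1 fell by 0.21 and Slc25a46 rose by 0.23. With the title-number block these 4 did not pass, at adjusted p-values of 0.0651 to 0.0756.

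Of 24 nephrocystin and transition zone genes, the surroundings of Nphp4, 3 fell (12.5%), 1 rose and 20 did not pass. A negative fold change was found for 22 of the 24 (91.7%), against 59.9% of all genes, and the median was −0.14. This was not particular to the list. The share was 90.0% in the MORN list, 84.0% in the Fanconi list and 72.0% over all related lists. It was lowest among the Mxra8 relatives and binding partners, at 33.3%. Zfp423 fell by 0.30 (SE 0.06), Tctn1 by 0.24 (SE 0.07) and the kinase gene Nek8 by 0.43 (SE 0.13, adjusted p = 0.05 after rounding), whose arrays overlap between genotypes. Cc2d2a rose by 0.42 (SE 0.11), with signals of 4.61, 4.47 and 4.36 in knockout and 4.09, 3.79, 4.10 and 4.24 in wild type. Of these 4, Zfp423 alone passed with the title-number block (adjusted p = 0.0386).

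Among 40 other tetratricopeptide genes 12 fell (30%), 3 rose (7.5%) and 25 did not pass (median −0.19). Ttc29, a gene of the sperm axoneme, fell by 0.31 (SE 0.06), Ttc6 by 0.34 (SE 0.06) and Ttc16 by 0.34 (SE 0.07), while Ttc7b rose by 0.66 (SE 0.12). The largest fall of the list was that of Ttc23, by 0.70 (limma's adjusted p = 0.0336). Ttc29 gave 10.52, 10.64 and 10.63 in knockout and 10.91, 10.92, 10.89 and 10.90 in wild type. Of 10 MORN repeat and related genes 1 fell and 9 did not pass. This was Morn3, by 0.25 (SE 0.07, adjusted p = 0.0478, and 0.086 with the title-number block), while Morn5 (−0.19, adjusted p = 0.0632) and Morn2 (−0.20, adjusted p = 0.0787) did not pass.

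The remaining lists held few calls. Of 9 other SAM domain genes 2 rose and 7 did not pass. Samd9l, an interferon-induced gene, rose by 0.86 (SE 0.14, adjusted p = 0.0129) and Samd8 by 0.30 (SE 0.08, adjusted p = 0.0788 with the title-number block, which does not pass), while Samd7, the photoreceptor relative of Samd11, did not pass (−0.42, SE 0.15, adjusted p = 0.0941). Of 11 C1q and TNF related genes C1qtnf4 fell by 0.26 (SE 0.07, adjusted p = 0.0481, and 0.0688 with the title-number block) and 10 did not pass. Of 7 F-box relatives and SCF core genes Fbxo17 rose by 0.34 (SE 0.07, adjusted p = 0.0183) and 6 did not pass. Of 9 measured zinc finger genes of the cluster and their co-repressors, Zfp982 rose and 8 did not pass, among them Zfp991 (−0.29, SE 0.10, adjusted p = 0.0794), Zfp980 (−0.12) and Rex2 (−0.08). Itgav, an integrin subunit of a pair that Mxra8 is reported to bind, rose by 0.67 (SE 0.13, adjusted p = 0.0170), with 7.17, 7.26 and 7.29 in knockout and 6.46, 6.27, 6.84 and 6.72 in wild type. Mxra7 (0.19) and Itgb3 (−0.14) did not pass.

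**Figure D5:**
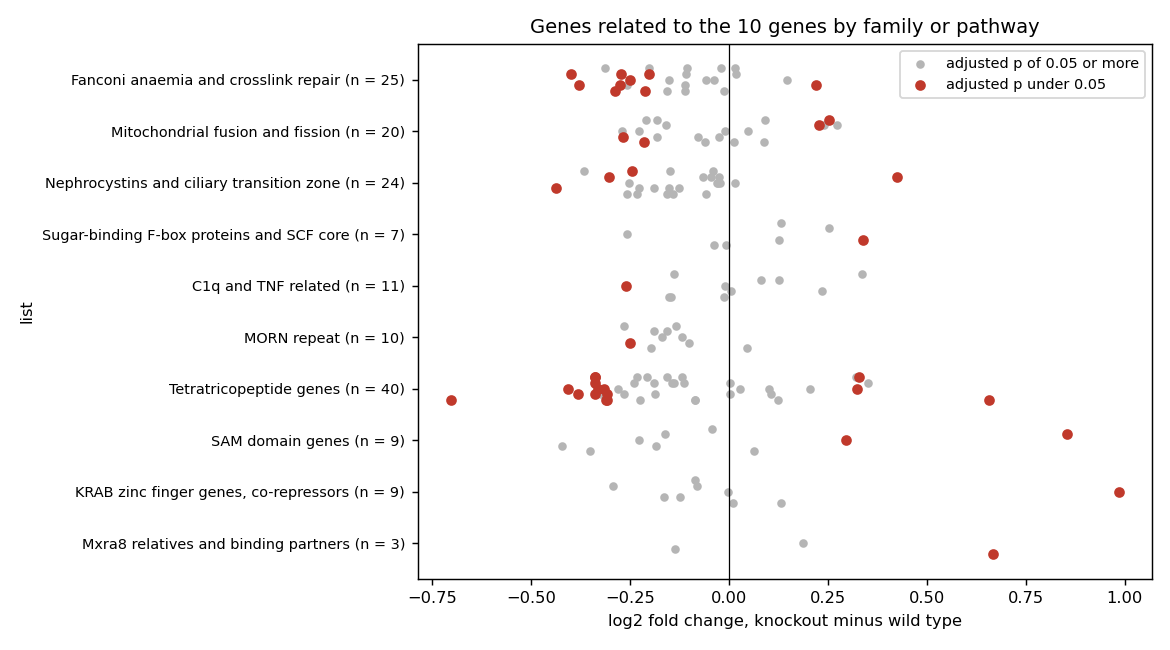
Log2 fold change of knockout minus wild type (horizontal axis) for each measured gene of the 10 related lists (rows, vertical spread for legibility); red points pass limma's adjusted p of 0.05 and grey points do not. The Fanconi list has 8 red points below 0 and 1 above, and Zfp982 at 0.99 is the furthest to the right.

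Genes elsewhere in the genome had profiles like that of the group. The mean standardised profile of the 9 lower genes over the 7 arrays was most like those of Fam131b (Pearson r = 0.998), Zbtb3 (0.997), Trim39 (0.996), Pde4dip (0.992) and Alx1 (0.991), among 15323 named genes off chromosome 4. Their log2 fold changes ran from −0.61 for Alx1 to −0.19 for Trim39. The profile of Samd11 was most like those of Mid2 (0.988), Wls (0.979), Nedd4l (0.974), Samd9l (0.971) and Hnrnph2 (0.968). These genes share the 7 arrays and the split by genotype, and the values are given as a description.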

How the data were processed

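The deposited values are log2 signals of 45101 probe sets on 7 arrays, made by the authors with Affymetrix Expression Console 1.4.1, per the submitters' processing notes; the background correction, summarisation and normalization are not given in the sources used here, and the log2 scale was read from the range, 1.59 to 13.92. No normalization was added. Probe sets were named from the platform annotation: 34958 had 1 symbol, 932 several and 9211 none, and only the first were tested. Each of 18194 genes was represented by its probe set of highest mean. Groups came from the labels. The test between genotypes was that of limma 3.58.1, run in R 4.3.3 (lmFit, eBayes, two-sided, Benjamini-Hochberg adjustment over all genes, or over all probe sets, threshold 0.05), which was first tested on simulated data. Log2 fold changes run knockout minus wild type, and SE is the fit's standard error (median 0.084). Rose and fell are used for tested genes past the threshold. Gene order and the 10 Mb window came from RefSeq on GRCm38.p6, which left 51 genes unplaced; promoter sequences are RefSeq's. The arrays name no assembly. Precision is limited by the small number of arrays.

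The members and lists were chosen with earlier results of these data known. Genes are named by a fixed rule: the members with every probe set, and the 3 adjacent and 6 other window genes of smallest p. It also takes the genes at the limit of the window and the 5 most alike. Of each list it takes up to 4 genes, and its genes in the window. Rfwd3, Plekhn1, Pgd, Espn and Ttc23 were named after their values were seen. As alternatives, dim genes were left out, arrays were quantile-normalized or centred, and fits were repeated with trend and robust settings, array weights, blocks, the mean of probe sets, other windows, a floor, or arrays left out.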

Additional observations from a re-analysis of the deposited data

Results flagged for a closer look

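In 2 of the 23 groups of 4 wild type arrays examined (the probe sets of the 10 genes and of Phf13), 1 array stood apart by Dixon's criterion for 4 samples, which chance meets in about 1 in 20 groups. Both were dim probe sets of Morn1. In 1430609_at the wild type signals were 4.35, 4.33, 4.33 and 4.33, so that the gap of wild type 1 made up the whole range (ratio 1.0). In 1433180_at they were 5.11, 5.11, 5.11 and 4.95, where wild type 4 made up the whole range (ratio 1.0). Values deposited to 2 decimals give such ties. The knockout groups, with 3 arrays, were not examined this way. Neither probe set carries the difference described for Morn1.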

How the results depend on the processing

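Samd11, the higher gene among the 10, was left out as dim when the dimmest genes were removed, and 9 of the 10 were then called. The directions of the 10 genes are largely fixed by their choice and by arrays that do not overlap, so their stability under the alternatives is not read further. Of the 169 values obtained, 7 moved by more than the spread between replicates. These 7 were the mean over all probe sets of a gene, which took in its less bright probe sets. Samd11 was 0.47, Morn1 −0.25, Nphp4 −0.29, Fbxo44 −0.31, Mfn2 −0.36, C1qtnf12 −0.80 and Faap20 −0.86. In Faap20 and C1qtnf12 the probe sets taken in were not all dim. Among them 1431003_a_at and 1448687_at lay above the array medians in both genotypes and showed smaller differences than the probe set used. The number of the 10 past the threshold ran from 7 to 10 with 1 array left out. For all genes the count ran from 175 to 2574 with 1 array left out, for the window genes from 9 to 25, and for the related genes from 1 to 32. Without knockout 3 and wild type 4 together, 4 of all genes, 1 of the window genes, 0 of the related genes and 1 of the 10 passed, in a fit of 5 arrays. Phf13 stayed past the threshold throughout, at −2.87 to −2.71 with 1 array left out.

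With the replicate number of the labels as a block, 2294 of all genes, 25 window genes, 16 related genes and all 10 genes passed. The numbers were not taken to pair the arrays, since deviations from the genotype means correlated at 0.182, 0.103 and −0.143 for the pairs numbered 1, 2 and 3, while the pairs within title-number groups correlated at 0.182, 0.103, 0.164 and 0.319 and all other pairs at 0.0227 or less. The arrays of a title-number group thus deviated together, which the fit without a block leaves out; blocking on these groups gave 2317 of all genes, 29 window genes and 20 related genes. The cause of these changes was not tested. Array signals below the array medians, among them those of 7 of the 22 probe sets in knockout, limit what can be read from dim probe sets.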
